A study of Mus musculus with 16 samples.

Results

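E14Tg2A mouse embryonic stem cells kept for 6 days in 150 µM NiCl2 were compared with untreated cells of the same day. The comparison holds 4 of the 16 libraries of the series, chosen by their titles: replicates A and B of the 150 µM nickel group on day 6, and replicates A and B of the control group on day 6. E14Tg2A is an established embryonic stem cell line, labelled wild type in every group. LIF, a cytokine that sustains self-renewal, was present in the serum-containing medium of all groups, and cells were passaged every 2 days, the nickel salt being renewed at each passage. The other groups used here for comparison received 100 or 200 µM nickel for 6 days, or 150 µM or no nickel for 4 days, again with 2 libraries each. Polyadenylated RNA was sequenced with a stranded library kit. For each of 26239 genes the authors' deposited table gave 1 RPKM value per group (reads scaled to transcript length and library size), so no value of a single library could be shown. It also gave a log2 fold change of nickel over control, its p-value and that p-value adjusted over genes, and 19822 genes had a test. Nothing in the labels makes A and B independent cultures, and the p-values then measure only the spread between these libraries, which may be technical. The title of the series frames the question as one of repressed developmental genes in nickel-exposed stem cells.

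Nickel(II) ions can take the place of iron in dioxygenases, the enzymes that use oxygen and 2-oxoglutarate. This family includes the prolyl hydroxylases that mark the hypoxia factor HIF for destruction, the JmjC histone demethylases, the TET enzymes that oxidise methylated DNA, and the hydroxylases of collagen. Embryonic stem cells hold a network of pluripotency factors around OCT4, SOX2 and NANOG, and move between a naive state, a formative or primed state that prepares for lineage choice, and a rare state that resembles the 2-cell embryo.

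The cells carried the markers of embryonic stem cells. All 9 such markers read, Pou5f1, Sox2, Nanog, Zfp42, Esrrb, Sall4, Dppa5a, Tdgf1 and Utf1, were at or above 51.1 RPKM in nickel cells and in control cells, and their RPKM values summed to 6613 in nickel cells and 6418 in control cells. Markers of fibroblasts summed to 6.19 RPKM in nickel cells and 9.48 RPKM in control cells, with 4 and 2 of 8 listed at 0. Those of trophoblast summed to 1.53 and 1.90 RPKM in nickel and control cells, and those of primitive endoderm to 5.80 and 5.40 RPKM. Neural markers summed to 36.5 and 50.2 RPKM in nickel and control cells, most of it Tubb3 (29.6 and 37.1 RPKM), with Pax6 and Neurod1 called. Blood and endothelial markers summed to 17.3 and 11.7 RPKM, nearly all of it Cd68 (17.1 and 11.1 RPKM), and Ptprc, the leukocyte marker, stood at 0 and 0.00328 RPKM. Library depths recovered from the steps of the RPKM values were 34.0 and 60.9 M reads in the nickel group and 58.8 and 70.6 M in the control group. For the nickel group 30.5 and 61 M described the steps almost as well. Over the range read, 2 libraries of 61 M each would give the same steps as 30.5 and 61 M. A difference in depth between the nickel libraries was thus not established. Genes with at most 3 reads in a group and a value under a set cut were read at 34.0 and 60.9 M. Among these the shallower nickel library gave 26 reads and the deeper one 521. At these depths the shallower would hold 35.8% of the depth. Reads and depths come from the same steps, so this share is not an independent measure. At 30.5 and 61 M a read of the shallower library would look like 2 of the deeper one, and the split could not be read. In the control group the shallower library gave 317 such reads and the deeper one 236. The cut left out genes with most or all of their 3 reads in the shallower nickel library. It left out no such genes of the control group. The nickel split thus leans to the deeper library by the choice of genes, and both groups are not alike in this. Of the genes called, 69 lay under 1 RPKM in both groups, and the part of any imbalance between libraries in their calls was not tested. Markers of liver were present in control cells only at a trace: the 7 summed to 0.667 RPKM in nickel cells, with 5 listed at 0, and to 4.43 RPKM in control cells, with none at 0. Their sum was 4.63 RPKM at 100 µM and 1.19 RPKM at 200 µM on day 6. Genes with transcripts over 8000 bases and at least 5 RPKM numbered 359, of which 53 were higher and 8 lower in nickel cells, with a median log2 fold change of 0.08 against medians between -0.03 and -0.002 in the shorter classes. Those long genes include Tet2, Kdm5b, Lama1 and Atrx, named below, and the part of length in their rise was not tested.

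At 150 µM on day 6, 861 genes passed the authors' adjusted p-value of 0.05, which is 4.34% of the genes tested. Of these 467 were higher in nickel cells (2.36% of genes tested) and 394 were lower (1.99%). The counts of gene lists below are to be read beside these shares, and some lie near them. Most changes were small: the median called gene differed 1.52-fold, 128 genes were at least 2-fold higher and 126 at least 2-fold lower. Calls were more frequent among abundant genes, with 13.8% of 680 genes at or above 100 RPKM called and 0.88% of 7838 genes under 1 RPKM. Over genes with at least 1 RPKM in either group the median log2 fold change was -0.01, and the median standard error, implied by each fold change and p-value, was 0.16. A log2 fold change below is followed by this standard error. The RPKM values and the fold changes were not on quite the same scale. Over 7764 genes above 5 RPKM in both groups, the log2 fold change lay a median of 0.09 above the log2 RPKM ratio. The RPKM values summed to 397758 in nickel cells and 416001 in control cells. A pair of RPKM values thus tends to read slightly lower for nickel cells than its fold change does. The lowest adjusted p-value belonged to Gm21761, a predicted gene, with 102 RPKM in nickel cells and 24.8 RPKM in control cells in the authors' deposited table (log2 fold change 2.14 ± 0.14, adjusted p = 1.44e-46).

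**Figure D1:**
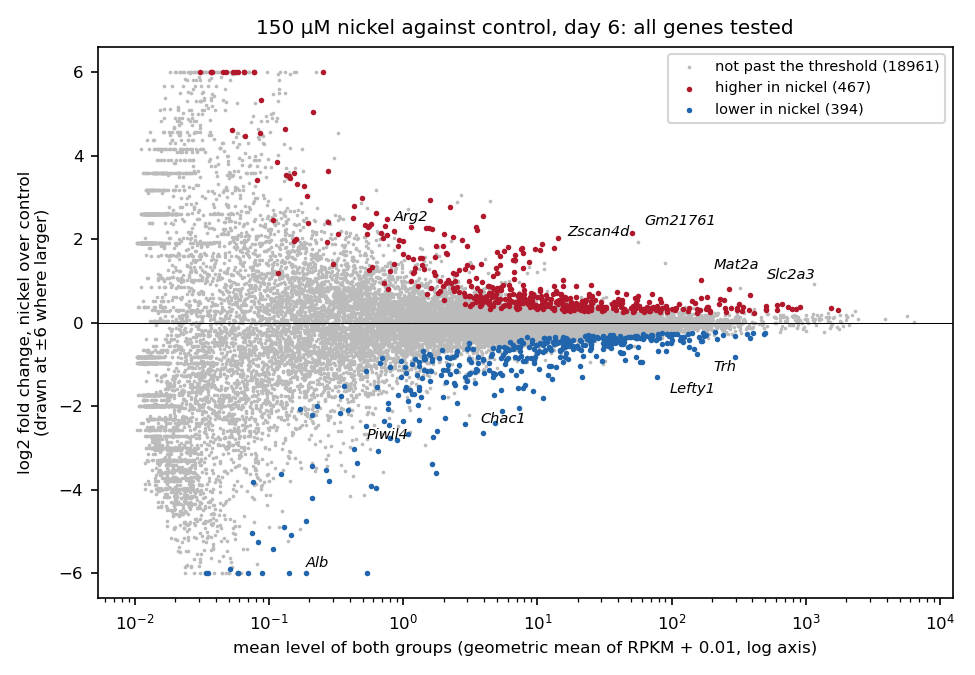
Log2 fold change of nickel over control (vertical axis) against the mean level of both groups (horizontal axis, log scale) for the 19822 genes tested on day 6; red points are the 467 genes higher in nickel cells and blue points the 394 lower ones. Most called genes lie within 2-fold, and Lefty1, Mat2a, Slc2a3 and Trh stand out among abundant genes.

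Genes of the 2-cell-like state had the highest share of rises among the 56 gene lists read. Of 38 tested members 21 rose and none fell, and the median log2 fold change was 1.66, beside -0.03 over all genes tested. The Zscan4 genes encode zinc finger proteins that lengthen telomeres in embryonic stem cells and mark this state. Zscan4a had 28.1 RPKM in nickel cells and 7.33 RPKM in control cells in the authors' deposited table (log2 fold change 2.03 ± 0.17, adjusted p = 3.31e-30). Zscan4d, at chr7:11161643-11166148 (GRCm38, as are all gene positions here), had 24.1 RPKM in nickel cells and 7.43 RPKM in control cells there (authors' deposited table, 1.79 ± 0.14, adjusted p = 3.64e-33). Zscan4c and Zscan4f were 3.39-fold and 3.45-fold higher by the authors' deposited table, and Zscan4b 3.10-fold. These genes are near-identical copies of each other, and reads may have been split among them, so their single values are uncertain and they are not separate evidence. Their copies can be seen before their start sites. The 4 with an entry in RefSeq (build GRCm38.p6) are shown 5′ to 3′ on the gene's own strand, in capitals the 48 bases that all 4 share and that were found before the start of no other gene among 19467:
Zscan4b, chr7:10905143-10905230, minus strand: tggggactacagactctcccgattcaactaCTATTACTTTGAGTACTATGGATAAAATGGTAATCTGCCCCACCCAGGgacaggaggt
Zscan4c, chr7:11005542-11005629, plus strand: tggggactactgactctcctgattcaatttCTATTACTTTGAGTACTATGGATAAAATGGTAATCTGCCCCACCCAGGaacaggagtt
Zscan4d, chr7:11166275-11166362, minus strand: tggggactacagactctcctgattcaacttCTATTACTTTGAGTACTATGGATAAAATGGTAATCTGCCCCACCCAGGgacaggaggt
Zscan4f, chr7:11397735-11397822, plus strand: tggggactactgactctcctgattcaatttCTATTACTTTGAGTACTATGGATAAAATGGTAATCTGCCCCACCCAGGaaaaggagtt
Zscan4b and Zscan4d lie on the minus strand and Zscan4c and Zscan4f on the plus strand of the same chromosome region.

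Other genes of the 2-cell-like state moved with them. Arg2, which encodes a mitochondrial arginase, had 4.05 RPKM in nickel cells and 0.986 RPKM in control cells in the authors' deposited table (log2 fold change 2.13 ± 0.39, adjusted p = 4.88e-06). Tmem92, a transmembrane protein gene, had 5.34 and 1.40 RPKM in nickel and control cells there (authors' deposited table, 1.99 ± 0.30, adjusted p = 6.18e-09). Spz1 and Sp110 were 7.90-fold and 4.98-fold higher by the authors' deposited table, at 1.29 and 1.57 RPKM in nickel cells. The Usp17l genes, deubiquitinase genes in near-identical copies, were between 3.27-fold (Usp17lb) and 4.92-fold (Usp17ld) higher by the authors' deposited table. Fgf1, with 4.11 RPKM in nickel cells and 3.04 RPKM in control cells in the authors' deposited table, did not pass (adjusted p = 0.127). In bulk RNA a larger share of cells in this rare state and more RNA per cell cannot be told apart.

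Among naive and core pluripotency factors, 11 of 35 members rose and 5 fell, with a median log2 fold change of 0.13. Nanog, a core homeobox factor at chr6:122707565-122714633, had 272 RPKM in nickel cells and 195 RPKM in control cells in the authors' deposited table (log2 fold change 0.57 ± 0.08, adjusted p = 5.77e-10). Klf4, a zinc finger factor downstream of LIF, had 80.8 RPKM in nickel cells against 66.2 RPKM in control cells (authors' deposited table, 0.37 ± 0.09, adjusted p = 0.000919). Zfp57, which protects imprinted methylation, was 1.51-fold higher and Nr0b1 1.56-fold higher by the authors' deposited table. Tdgf1, the Nodal co-receptor CRIPTO, reached 749 RPKM in nickel cells, against 586 RPKM in control cells in the authors' deposited table, and Dppa2, Tbx3, Fbxo15, Prdm14, Trim71 and Tet2 also rose. The 5 that fell were Gbx2, Klf2, Klf5, Utf1 and Lin28a. Klf2, a factor of the naive network, had 68.6 RPKM in nickel cells and 94.1 RPKM in control cells in the authors' deposited table (log2 fold change -0.37 ± 0.09, adjusted p = 0.00174). The core gene Pou5f1, which encodes OCT4, had 816 RPKM in nickel cells and 767 RPKM in control cells and did not pass in the authors' deposited table (adjusted p = 0.253). Zfp42, a zinc finger marker of undifferentiated cells, had 309 and 300 RPKM in nickel and control cells there (authors' deposited table, adjusted p = 0.437).

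Several genes that respond to LIF through STAT3 were lower. Of 19 tested members 4 fell and 1 rose, Klf4, and the median log2 fold change was -0.16. Socs3, the feedback inhibitor of the LIF receptor, had 44.2 RPKM in nickel cells and 70.4 RPKM in control cells in the authors' deposited table (log2 fold change -0.58 ± 0.10, adjusted p = 7.94e-07). Junb, an AP-1 subunit gene, had 8.34 and 14.3 RPKM in nickel and control cells there (authors' deposited table, -0.69 ± 0.17, adjusted p = 0.0016). Klf5 and Gbx2 were the other two.

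Genes of the formative and primed state changed in 1 direction where they passed: 6 of 28 tested members fell and none rose, although the median log2 fold change over the list was 0.06. The Nodal inhibitor genes Lefty1 and Lefty2 led. Lefty1, at chr1:180935022-180938401, had 48.1 RPKM in nickel cells and 125 RPKM in control cells in the authors' deposited table (log2 fold change -1.29 ± 0.09, adjusted p = 6.23e-42). Lefty2 had 39.7 RPKM in nickel cells and 74.2 RPKM in control cells (authors' deposited table, -0.82 ± 0.10, adjusted p = 1.68e-14). Nodal itself had 47.6 RPKM in nickel cells, against 40.9 RPKM in control cells in the authors' deposited table, and did not pass (adjusted p = 0.101). The de novo DNA methyltransferase genes fell: Dnmt3b had 31.4 RPKM in nickel cells and 54.3 RPKM in control cells in the authors' deposited table (log2 fold change -0.70 ± 0.09, adjusted p = 2.84e-12). Dnmt3a was 1.54-fold lower by the authors' deposited table, and Grhl2 and Sox4 were 1.48-fold and 1.29-fold lower.

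Other genes of DNA methylation rose or did not pass. Tet2, whose product oxidises 5-methylcytosine, had 33.2 RPKM in nickel cells and 19 RPKM in control cells in the authors' deposited table (log2 fold change 0.90 ± 0.09, adjusted p = 2.95e-19). Dnmt3l, the catalytically inactive partner of the de novo enzymes, was 1.30-fold higher and Gadd45a 1.48-fold higher by the authors' deposited table. The maintenance genes Dnmt1 (63.5 and 75.4 RPKM in nickel and control cells) and Uhrf1 (104 and 117 RPKM) did not pass in the authors' deposited table (adjusted p = 0.321 and 0.664). In the list of 18 genes, 3 were higher and 2 lower.

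**Figure D2:**
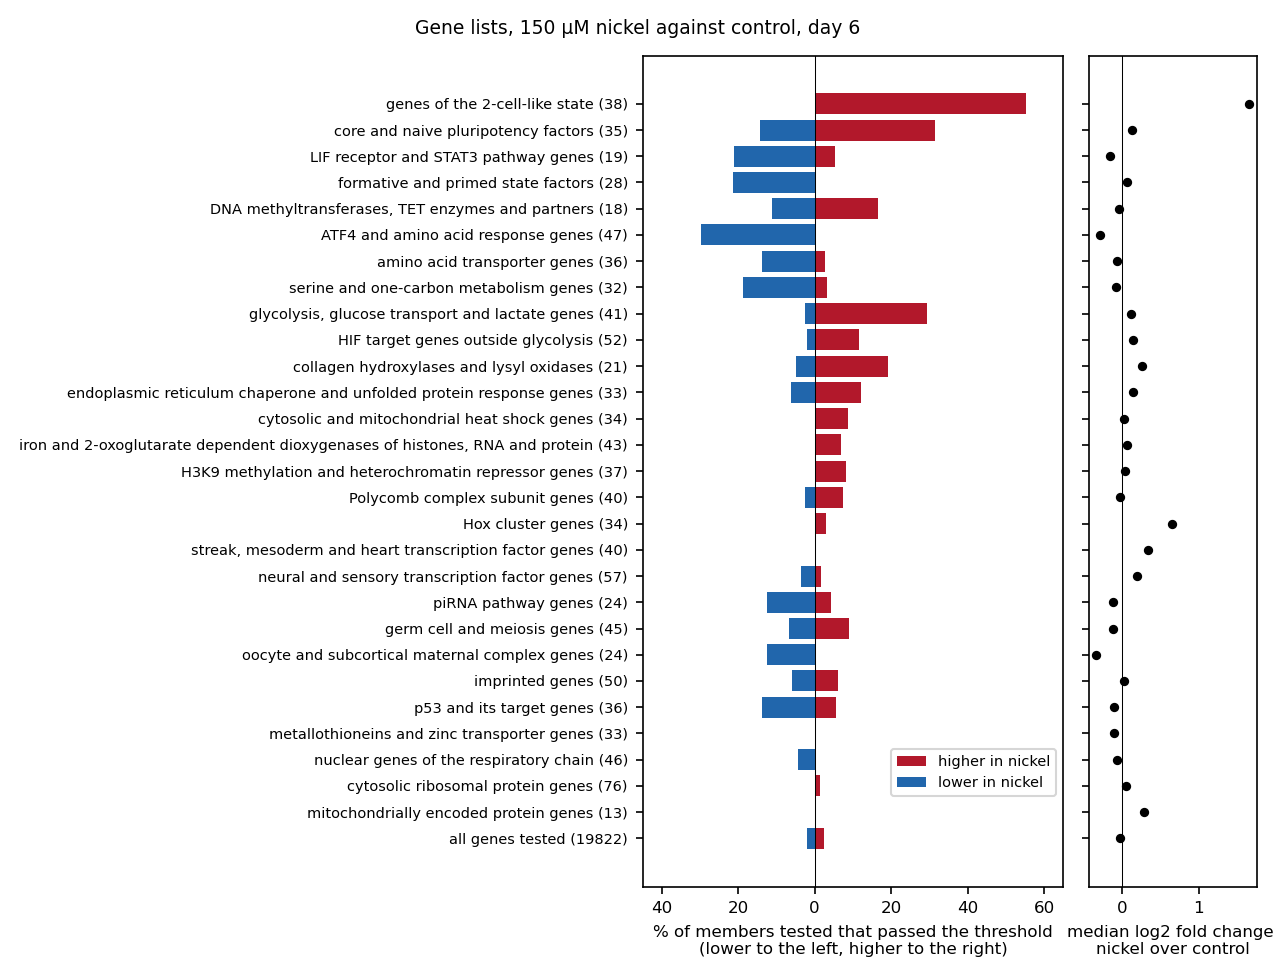
Share of the tested members of each gene list that passed the threshold, higher in nickel cells to the right (red) and lower to the left (blue), with the number tested in brackets, and the median log2 fold change of nickel over control at right. The 2-cell-like list reaches the highest share to the right, with 21 of 38, and the ATF4 list the highest to the left, with 14 of 47, above all genes tested at the bottom with 2.36% and 1.99%.

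In the amino acid response every gene that passed was lower. ATF4 is the transcription factor that cells make more of when amino acids or protein folding fail, and its targets take up and make amino acids. Of 47 tested genes of this list, 14 fell and none rose, and the median log2 fold change was -0.30. Atf4, at chr15:80255184-80257545, had 112 RPKM in nickel cells and 190 RPKM in control cells in the authors' deposited table (log2 fold change -0.62 ± 0.09, adjusted p = 5.52e-09). Chac1, a glutathione-degrading enzyme gene, had 5.70 RPKM in nickel cells and 21 RPKM in control cells (authors' deposited table, -1.79 ± 0.18, adjusted p = 1.15e-20). Trib3, a pseudokinase gene, had 12.3 RPKM in nickel cells against 21.7 RPKM in control cells in the authors' deposited table (log2 fold change -0.73 ± 0.17, adjusted p = 0.000878). Herpud1, which encodes a factor of protein degradation at the endoplasmic reticulum, was 1.89-fold lower by the authors' deposited table. Asns, the asparagine synthetase gene and a textbook ATF4 target, stood at 176 RPKM in nickel cells and 176 RPKM in control cells in the authors' deposited table (adjusted p = 0.655).

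Some promoters of the list hold the element that ATF4 and its C/EBP partners bind. The motif TGATGNAA, read on both strands, lay in 12 of 39 matched promoters of the list and in 3.72% of 19467 promoters (250 bases before to 50 bases after the start, RefSeq, GRCm38.p6). It lay in 5 of 12 promoters of members that fell and in 7 of 27 of members not called. Windows that end before the start site, or 4 bases past it in Slc1a4, are shown for 4 members that fell and for Asns, which was not called, 5′ to 3′ on the gene's own strand with the match in capitals:
Chac1, chr2:119351013-119351092, plus strand: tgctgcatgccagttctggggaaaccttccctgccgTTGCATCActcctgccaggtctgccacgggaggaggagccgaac
Slc1a4, chr11:20332710-20332753, minus strand: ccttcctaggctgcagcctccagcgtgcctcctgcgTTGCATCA
Pck2, chr14:55540127-55540206, plus strand: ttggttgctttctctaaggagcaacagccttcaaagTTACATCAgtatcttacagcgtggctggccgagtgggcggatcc
Herpud1, chr8:94386281-94386360, plus strand: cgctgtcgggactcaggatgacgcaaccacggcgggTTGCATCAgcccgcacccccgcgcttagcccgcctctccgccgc
Asns, chr6:7693210-7693268, minus strand: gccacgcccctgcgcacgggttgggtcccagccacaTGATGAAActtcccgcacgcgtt
The match is on the opposite strand in the 4 genes that fell, so it reads as the reverse complement, and on the gene's strand in Asns. A match describes the letters only. The list was drawn up from genes of this response, so its share above that of all promoters says nothing about nickel.

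Genes of amino acid uptake and serine metabolism were mostly lower where they passed, and part of them are also on the ATF4 list. Of 36 tested amino acid transporter genes, 5 fell (13.9%) and 1 rose (2.78%). Slc7a5 and Slc3a2, which form the exchanger of large neutral amino acids, were 1.29-fold and 1.27-fold lower by the authors' deposited table. Slc1a4, a transporter of neutral amino acids, had 6.79 RPKM in nickel cells and 13.3 RPKM in control cells in the authors' deposited table (log2 fold change -0.89 ± 0.19, adjusted p = 0.000352). Slc7a7 was 1.55-fold lower there and Slc6a6, the taurine transporter gene, 1.19-fold higher (authors' deposited table). Of 32 genes of serine and 1-carbon metabolism 6 fell, Pck2, Mthfd2, Phgdh, Gldc, Tdh and Psat1. Phgdh, the entry enzyme of serine synthesis, had 34 RPKM in nickel cells and 49.3 RPKM in control cells in the authors' deposited table (log2 fold change -0.45 ± 0.11, adjusted p = 0.00321). The 1 member that rose was Mat2a, which makes the methyl donor S-adenosylmethionine, with 232 RPKM in nickel cells and 117 RPKM in control cells in the authors' deposited table (log2 fold change 1.03 ± 0.09, adjusted p = 2.33e-30). Among 37 aminoacyl-tRNA synthetase genes 1 passed (2.70%, beside 1.99% lower over all genes tested). This was Cars, which was 1.24-fold lower by the authors' deposited table and overlaps another gene on its strand.

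**Figure D3:**
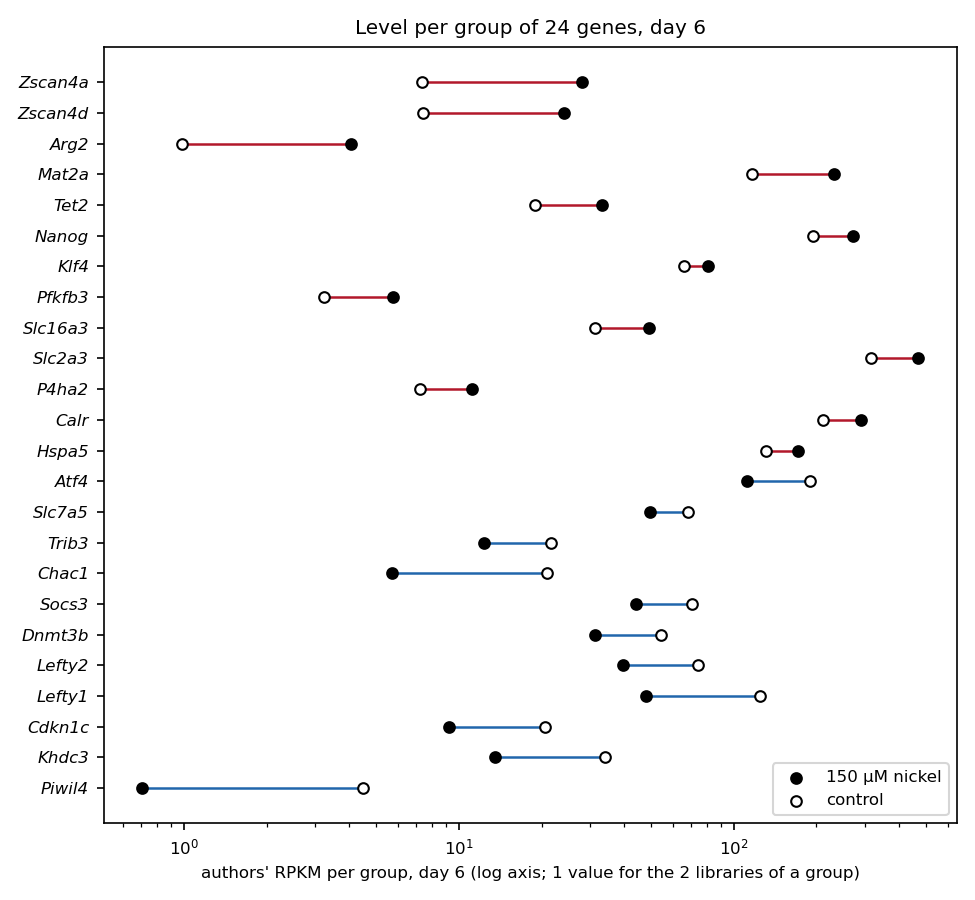
RPKM of 24 genes in 150 µM nickel cells (filled) and control cells (open) on day 6, on a log axis, 1 value per group of 2 libraries; red lines join genes higher in nickel cells and blue lines lower ones. Zscan4a, Arg2 and Mat2a lie to the right of their control value, and Chac1, Lefty1 and Piwil4 to the left.

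Genes of glucose uptake, glycolysis and lactate export were higher, with 1 exception, where they passed. Of 41 tested genes 12 rose and 1 fell, with a median log2 fold change of 0.12. Slc2a3 and Slc2a1 encode glucose transporters. Slc2a3 had 469 RPKM in nickel cells and 317 RPKM in control cells in the authors' deposited table (log2 fold change 0.65 ± 0.07, adjusted p = 8.76e-18). Slc2a1, at chr4:119108745-119137329, had 258 RPKM in nickel cells against 200 RPKM in control cells (authors' deposited table, 0.46 ± 0.07, adjusted p = 1.96e-07). Pfkfb3, which makes the activator of phosphofructokinase, had 5.76 RPKM in nickel cells and 3.23 RPKM in control cells in the authors' deposited table (log2 fold change 0.89 ± 0.17, adjusted p = 2.13e-05). Slc16a3, the lactate exporter gene, was 1.67-fold higher by the authors' deposited table. The enzyme genes had smaller fold changes: Eno1 was 1.35-fold, Pkm 1.28-fold, Pfkl 1.28-fold, Gys1 1.36-fold, Ldha 1.26-fold, Pgk1 1.25-fold, Gapdh 1.24-fold and Tpi1 1.23-fold higher by the authors' deposited table. Gapdh, Eno1, Tpi1 and Ldha have near-identical pseudogenes that may share their reads. Aldoa, with 1170 RPKM in nickel cells and 1080 RPKM in control cells in the authors' deposited table, missed the threshold (adjusted p = 0.0545). Ldhb, the other lactate dehydrogenase subunit, was 1.24-fold lower (authors' deposited table).

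In the list of HIF targets, which shares Gys1 with the glycolysis list, 7 of 52 tested members passed. Of these 6 rose (11.5% of members tested), P4ha2, Gys1, Plod1, Kdm3a, Plod2 and Tfrc, and 1 fell (1.92%). P4ha2, a collagen prolyl hydroxylase subunit, had 11.2 RPKM in nickel cells and 7.25 RPKM in control cells in the authors' deposited table (log2 fold change 0.72 ± 0.17, adjusted p = 0.000917). Kdm3a, an H3K9 demethylase, had 56.5 RPKM in nickel cells against 47.7 RPKM in control cells (authors' deposited table, 0.39 ± 0.08, adjusted p = 0.000131). Mif, a cytokine gene, had 581 and 626 RPKM in nickel and control cells and did not pass in the authors' deposited table (adjusted p = 0.961). Ddit4, which encodes an inhibitor of the growth kinase mTORC1, had 71.4 and 84.5 RPKM (authors' deposited table, adjusted p = 0.417). Of 15 HIF subunit and oxygen-sensing genes 1 passed, Os9, 1.48-fold higher by the authors' deposited table, while Hif1a stood at 24.7 RPKM in nickel cells and 28.7 RPKM in control cells. The core of the hypoxia response element, ACGTGC on either strand, lay in 10 of 38 matched promoters of the glycolysis list and in 6.45% of all 19467 promoters. It lay in 4 of 11 promoters of glycolysis members that rose and in 6 of 26 of those not called. In the HIF target list it lay in 12 of 39 promoters, in 2 of 5 of members that rose and in 10 of 33 of those not called. Windows before the start site are shown for 4 genes that rose, with the matches in capitals:
Slc16a3, chr11:120949004-120949066, plus strand: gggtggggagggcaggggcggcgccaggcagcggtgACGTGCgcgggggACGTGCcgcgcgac
Slc2a1, chr4:119108673-119108744, plus strand: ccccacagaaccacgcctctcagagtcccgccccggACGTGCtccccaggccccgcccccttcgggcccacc
P4ha2, chr11:54100810-54100887, plus strand: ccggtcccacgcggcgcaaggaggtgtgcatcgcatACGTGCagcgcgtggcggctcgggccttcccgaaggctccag
Pgk1, chrX:106186932-106187009, plus strand: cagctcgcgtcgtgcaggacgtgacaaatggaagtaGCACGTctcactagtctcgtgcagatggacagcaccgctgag
Slc16a3 holds the core in 2 places, and Pgk1 holds it on the opposite strand. Again a match describes the letters only. Both lists were drawn up by pathway, so their shares above that of all promoters say nothing about nickel.

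Collagen-modifying enzymes overlapped with these targets. Of 21 members 4 rose, P4ha2, Plod1, Plod2 and Colgalt1, and 1 fell, Serpinh1, with a median log2 fold change of 0.26. Serpinh1, the collagen chaperone gene, had 15.6 RPKM in nickel cells and 25.5 RPKM in control cells in the authors' deposited table (log2 fold change -0.61 ± 0.13, adjusted p = 0.000214). Among 28 laminin and basement membrane genes 4 rose (14.3%) and 2 fell (7.14%). Lama1, a laminin chain gene, was 1.36-fold and Nid1 1.30-fold higher by the authors' deposited table, while Lama3 was 2.38-fold lower at 0.735 RPKM in nickel cells. Of 37 collagen genes 3 rose (8.11%) and 2 fell (5.41%), among them Col4a1 at 1.44-fold higher and Col18a1 at 1.28-fold lower by the authors' deposited table.

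Some chaperones of the endoplasmic reticulum rose. Of 33 tested members 4 rose (12.1%), Calr, Hspa5, Hsp90b1 and Pdia4, and 2 fell (6.06%), Sec61b and Herpud1. The median log2 fold change was 0.13. Pdia4 overlaps another gene on its strand, so its value is uncertain. Hspa5, the lumenal HSP70 chaperone BiP, had 172 RPKM in nickel cells and 131 RPKM in control cells in the authors' deposited table (log2 fold change 0.48 ± 0.08, adjusted p = 2.65e-08). Calr, a lectin chaperone, had 291 RPKM in nickel cells and 211 RPKM in control cells (authors' deposited table, 0.55 ± 0.08, adjusted p = 6.98e-11). Canx, the membrane-bound relative of calreticulin, had 138 and 153 RPKM in nickel and control cells and did not pass in the authors' deposited table (adjusted p = 0.762). The endoplasmic reticulum stress response element, searched on both strands as CCAAT and CCACG with 9 bases of any kind between, lay in 9 of 27 matched promoters of the list and in 0.154% of all promoters. It lay in 3 of 4 promoters of members that rose and in 6 of 21 of those not called. Windows before the start site are shown for both genes with the smallest p-values, with the match in capitals:
Hspa5, chr2:34771989-34772079, plus strand: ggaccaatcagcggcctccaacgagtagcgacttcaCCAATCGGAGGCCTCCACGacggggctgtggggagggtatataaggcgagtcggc
Calr, chr8:84847039-84847129, minus strand: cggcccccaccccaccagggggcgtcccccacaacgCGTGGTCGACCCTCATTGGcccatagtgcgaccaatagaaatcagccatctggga
In Calr the element is on the opposite strand. Here too a match describes the letters only. The list was drawn up by pathway, so its share above that of all promoters says nothing about nickel.

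Of 34 cytosolic and mitochondrial heat shock genes 3 rose (8.82%). Hspa1b, the stress-inducible HSP70 gene, was 4.27-fold higher from a low level, with 1.48 RPKM in nickel cells and 0.370 RPKM in control cells in the authors' deposited table, and its near-identical copy Hspa1a may share its reads. Hsp90aa1 had 998 RPKM in nickel cells and 821 RPKM in control cells in the authors' deposited table (log2 fold change 0.37 ± 0.08, adjusted p = 0.000102), and Hspa8, which overlaps another gene on its strand, was 1.24-fold higher. Hsp90ab1 stood at 2430 and 2450 RPKM in nickel and control cells (authors' deposited table, adjusted p = 0.643).

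Of 43 iron- and 2-oxoglutarate-dependent dioxygenase genes 3 rose (6.98%, beside 2.36% over all genes tested), Kdm3a, Kdm2b and Kdm5b, and none fell. The 2.36% includes many near-silent genes, while 41 of the 44 matched members stood at 1 RPKM or more in either group. Calls in either direction reached 5.01% at 1 to 5 RPKM, 5.99% at 5 to 20, 7.85% at 20 to 100 and 13.8% above. The H3K9 and Polycomb lists below had 36 of 37 and 37 of 40 members at 1 RPKM or more. Kdm5b, an H3K4 demethylase gene, had 116 RPKM in nickel cells and 97.9 RPKM in control cells in the authors' deposited table (log2 fold change 0.33 ± 0.07, adjusted p = 0.000338). Of 37 genes of H3K9 methylation and heterochromatin 3 rose, or 8.11%: Trim28, the corepressor of KRAB zinc finger proteins, was 1.24-fold, Atrx 1.28-fold and Hdac1 1.23-fold higher by the authors' deposited table, Atrx being one that overlaps a gene on its strand. Among 40 Polycomb subunit genes 3 rose (7.5%) and 1 fell (2.5%). Epop, an elongin-binding partner of PRC2, had 95.9 RPKM in nickel cells and 69.1 RPKM in control cells in the authors' deposited table (log2 fold change 0.57 ± 0.11, adjusted p = 3.64e-05). Kdm2b and Mtf2, which recruit PRC1 and PRC2 to CpG islands, were 1.31-fold and 1.23-fold higher, and Phc1 1.19-fold lower, in the authors' deposited table.

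Developmental regulators were read in lists by lineage. None of 40 streak, mesoderm and heart factor genes passed the authors' DESeq2 test, and 4 had an unadjusted p-value under 0.05. Only 6 of the 43 members stood at 1 RPKM or more in either group, and under 1 RPKM only 0.88% of all genes were called. So the absence of calls says little about these genes. Their median log2 fold change was 0.34. At 200 µM nickel 7 of 40 tested members were higher and 2 lower on day 6. Over all genes tested at 200 µM the shares were 4.99% higher and 4.48% lower. Eomes, a T-box factor of the streak, had 1.62 RPKM in nickel cells and 0.976 RPKM in control cells in the authors' deposited table (adjusted p = 0.114). Of 57 neural and sensory factor genes 1 rose and 2 fell, Gbx2 among them, or 1.75% and 3.51%, beside 2.36% higher and 1.99% lower over all genes tested. Here 12 of the 60 members stood at 1 RPKM or more, and the median log2 fold change was 0.19. At 200 µM nickel 10 of 58 tested members were higher and 4 lower on day 6, beside the 4.99% and 4.48% over all genes tested there. Pax6, an eye and forebrain factor, had 1.17 RPKM in nickel cells and 0.534 RPKM in control cells in the authors' deposited table (log2 fold change 1.24 ± 0.41, adjusted p = 0.0459). Neurod1, a proneural factor, had 4.86 RPKM in nickel cells and 11.5 RPKM in control cells (authors' deposited table, -1.16 ± 0.17, adjusted p = 5.69e-09). Of 35 endoderm genes 3 rose (8.57%) and 2 fell (5.71%). The 3 that rose, Lama1, Col4a1 and Sparc, encode proteins of the extracellular matrix and are on the lists given above. The endoderm factor gene Hnf4a was 3.26-fold lower at 0.615 RPKM in nickel cells, against 2.14 RPKM in control cells in the authors' deposited table. Alb, also on the endoderm list, was listed at 0 in nickel cells and at 1.97 RPKM in control cells in the authors' deposited table (adjusted p = 1.98e-08). Control and 100 µM cells of day 6 both held traces of other liver transcripts as well, as given above. Hnf4a was also called lower at 150 µM on day 4 (log2 fold change -1.52). The liver markers summed there to 1.25 RPKM in nickel cells and 1.43 RPKM in control cells, with Alb at 0 in both. The part of the liver traces in the day 6 calls of Alb and Hnf4a was not tested. In the trophoblast list of 24 genes 1 passed (4.17%), Plet1, 2.23-fold lower by the authors' deposited table.

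Genes of germ cells and oocytes moved both ways. Among 24 piRNA pathway genes 3 fell (12.5%) and 1 rose (4.17%). Piwil4, the nuclear PIWI protein that guides methylation of transposons in male germ cells, had 0.706 RPKM in nickel cells and 4.48 RPKM in control cells in the authors' deposited table (log2 fold change -2.59 ± 0.37, adjusted p = 8.66e-10). Fkbp6, a piRNA pathway co-chaperone gene, was 2.32-fold lower and Piwil2 1.54-fold lower by the authors' deposited table, while Rnf17 was 1.26-fold higher. Of 45 germ cell and meiosis genes 4 rose (8.89%) and 3 fell (6.67%). Zcwpw1, a reader of meiotic histone marks, had 20.4 RPKM in nickel cells and 11.7 RPKM in control cells in the authors' deposited table (log2 fold change 0.89 ± 0.13, adjusted p = 5.52e-09). Kit, the receptor of stem cell factor, had 29.6 RPKM in nickel cells against 19.6 RPKM in control cells (authors' deposited table, 0.68 ± 0.10, adjusted p = 3.91e-10). Stra8, a gene of meiotic entry, was 1.64-fold higher and Sohlh2, a germ cell factor, 2.05-fold lower by the authors' deposited table. All 3 oocyte genes called of 24 tested (12.5%) fell. Khdc3, a subunit of the subcortical maternal complex, had 13.5 RPKM in nickel cells and 34.1 RPKM in control cells in the authors' deposited table (log2 fold change -1.30 ± 0.13, adjusted p = 2.04e-19), and Nlrp14 and Nlrp4f were 6.99-fold and 2.22-fold lower.

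Of 50 imprinted genes 3 rose and 3 fell (6% each way, beside 2.36% higher and 1.99% lower over all genes tested). Cdkn1c, the maternally expressed inhibitor of cyclin-dependent kinases at chr7:143458339-143461050, had 9.24 RPKM in nickel cells and 20.5 RPKM in control cells in the authors' deposited table (log2 fold change -1.05 ± 0.15, adjusted p = 7.17e-10). Impact was 1.31-fold lower and Grb10 1.29-fold higher by the authors' deposited table. The long non-coding RNA gene Kcnq1ot1, whose RNA silences the Cdkn1c domain in cis, had 0.156 RPKM in nickel cells and 0.0730 RPKM in control cells in the authors' deposited table (log2 fold change 1.19 ± 0.31, adjusted p = 0.00454). Kcnq1ot1 lies antisense within Kcnq1, and whether the counting used strand is not given in the sources used here, so reads of both may be mixed. The third that rose was Xist, the RNA that coats the inactive X chromosome, with 0.476 RPKM in nickel cells and 0.140 RPKM in control cells in the authors' deposited table (log2 fold change 1.93 ± 0.41, adjusted p = 0.000186). Both RNAs are longer than 8000 bases and lay under 1 RPKM in both groups. With a floor of 1 RPKM in either group, 1 imprinted gene rose and 3 fell.

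Signalling genes changed singly. Of 45 WNT genes 3 rose (6.67%) and none fell, beside 2.36% higher and 1.99% lower over all genes tested. Sfrp1, a secreted WNT antagonist, had 25.5 RPKM in nickel cells and 14.9 RPKM in control cells in the authors' deposited table (log2 fold change 0.87 ± 0.10, adjusted p = 1.52e-14). Among 28 BMP genes 2 rose (7.14%). Id3, an inhibitor of basic helix-loop-helix factors, was 1.83-fold and Dusp9 1.22-fold higher by the authors' deposited table. Of 32 immediate early genes 5 fell (15.6%) and 1 rose (3.13%). Fos, an AP-1 subunit gene, was the one that rose, with 5.02 RPKM in nickel cells and 2.13 RPKM in control cells in the authors' deposited table (log2 fold change 1.32 ± 0.26, adjusted p = 3.09e-05), while Junb, Zfp36, Klf10, Btg2 and Klf2 were lower. Of 29 FGF and ERK genes 2 passed (3.45% each way), Fos higher and Il17rd 1.34-fold lower by the authors' deposited table. Igfbp4, an insulin-like growth factor binding protein gene, had 1.24 RPKM in nickel cells and 5.03 RPKM in control cells (authors' deposited table, -1.93 ± 0.29, adjusted p = 9.01e-09). Among 38 adhesion and epithelial-mesenchymal genes 4 fell (10.5%) and 1 rose (2.63%). The epithelial genes Cldn4 and Cdh1 were 1.65-fold and 1.18-fold lower by the authors' deposited table.

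Of 36 tested genes of p53 and its targets 5 fell (13.9%) and 2 rose (5.56%). Cdkn1a, the p21 cell cycle inhibitor at chr17:29090979-29100722, had 31.3 RPKM in nickel cells and 46.3 RPKM in control cells in the authors' deposited table (log2 fold change -0.48 ± 0.11, adjusted p = 0.000848). The pro-apoptotic genes Bbc3 and Pmaip1 moved apart: Bbc3 was 1.48-fold lower and Pmaip1 1.48-fold higher by the authors' deposited table. Of 46 replication genes 1 rose (2.17%), Rpa1, and of 38 mitosis genes 1 rose (2.63%) and 3 fell (7.9%). Pttg1, the securin gene, had 68.7 RPKM in nickel cells and 119 RPKM in control cells in the authors' deposited table (log2 fold change -0.69 ± 0.11, adjusted p = 2.03e-07).

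None of the 33 metallothionein and zinc transporter genes passed the authors' DESeq2 test, and 3 had an unadjusted p-value under 0.05. Mt1, a metallothionein gene, had 152 RPKM in nickel cells and 153 RPKM in control cells in the authors' deposited table (log2 fold change 0.08 ± 0.11, adjusted p = 0.776). Of 33 iron genes 2 passed (3.03% each way, beside 2.36% higher and 1.99% lower over all genes tested). The transferrin receptor gene Tfrc was 1.25-fold higher and the ferritin heavy chain gene Fth1 1.21-fold lower by the authors' deposited table. Among 49 antioxidant and NRF2 target genes 3 rose (6.12%) and 4 fell (8.16%). Gpx1, a glutathione peroxidase gene, had 225 RPKM in nickel cells and 152 RPKM in control cells in the authors' deposited table (log2 fold change 0.62 ± 0.10, adjusted p = 2.71e-08), and Ephx1, an epoxide hydrolase gene, was 1.77-fold lower. Of 46 nuclear respiratory chain genes 2 fell (4.35%). None of 13 mitochondrially encoded protein genes passed the authors' DESeq2 test (0 at an unadjusted p-value under 0.05). Their median log2 fold change was 0.28, against -0.16 at 100 µM and -0.10 at 200 µM on day 6, and -0.06 at 150 µM on day 4. Of 76 ribosomal protein genes 1 rose (1.32%), Rps24. Of 34 cholesterol genes 1 fell (2.94%), and of 37 fatty acid genes 3 rose (8.11%). Elovl6, a fatty acid elongase gene, was 1.47-fold higher by the authors' deposited table.

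The remaining lists follow with their counts. Of 22 Nodal pathway genes 1 rose (4.55%) and 2 fell (9.09%), all 3 named above. Of 54 protocadherin genes 3 rose (5.56%), Pcdhga1, Pcdhga6 and Pcdhgb4, which share their last exons with their neighbours, so that reads cannot be placed with certainty. Of 26 retinoid genes 3 rose (11.5%), Rarg and Stra8 among them. Rarg, a retinoic acid receptor gene, had 59.6 RPKM in nickel cells and 49.3 RPKM in control cells in the authors' deposited table (log2 fold change 0.36 ± 0.09, adjusted p = 0.00216). Of 25 Hippo pathway genes 1 rose and 1 fell (4% each way): Amotl2, a YAP-binding angiomotin and YAP target, was 1.81-fold lower by the authors' deposited table. Of 36 interferon genes 1 fell (2.78%), Ifitm3, at 107 RPKM in nickel cells and 171 RPKM in control cells in the authors' deposited table. Of 41 lysosome genes 2 rose (4.88%). Of 35 cytoskeleton genes 2 rose, Actn4 among them, and 2 fell, Tpm1 and Tpm4 (5.71% each way). Tpm1, a tropomyosin gene, was 1.45-fold lower by the authors' deposited table. Of 11 blood and endothelial genes Cd68 rose and Tek fell, of 15 liver genes Alb fell, and of 12 fibroblast genes none passed, with 2 at an unadjusted p-value under 0.05.

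Further genes with very small p-values lay outside the lists and were chosen after their values were seen. Aass, the first enzyme of lysine breakdown, had 4.06 RPKM in nickel cells and 12.8 RPKM in control cells in the authors' deposited table (log2 fold change -1.57 ± 0.15, adjusted p = 4.44e-23). Pfn1, the actin-binding profilin, had 218 RPKM in nickel cells and 410 RPKM in control cells (authors' deposited table, -0.82 ± 0.09, adjusted p = 7.86e-19). Neat1, the RNA scaffold of paraspeckles, was 1.91-fold, Inpp5d, an inositol phosphatase gene, 1.89-fold, Crmp1 2.05-fold and Trh 1.69-fold lower by the authors' deposited table.

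By size, the 15 largest rises and falls were taken among called genes with at least 1 RPKM in either group, without predicted genes. Apart from genes listed at 0 in a group, the rises were led by Zfhx2os, a gene antisense to Zfhx2 whose reads may be mixed with those of its partner, with 1.02 RPKM in nickel cells and 0.0341 RPKM in control cells in the authors' deposited table (log2 fold change 5.03 ± 0.96, adjusted p = 2.04e-05). AA623943 had 9.12 RPKM in nickel cells and 1.67 RPKM in control cells (authors' deposited table, 2.55 ± 0.37, adjusted p = 1.48e-09). Rdh1, a retinol dehydrogenase gene, was 6.13-fold and Abcb5, a transporter gene, 5.00-fold higher by the authors' deposited table. The falls, apart from Alb, which is listed at 0 in nickel cells, were led by Gpx6, a glutathione peroxidase gene with 0.0650 RPKM in nickel cells and 1.03 RPKM in control cells in the authors' deposited table (log2 fold change -3.78 ± 1.06, adjusted p = 0.0116). Maml2, a Notch coactivator gene, had 0.138 RPKM in nickel cells and 1.26 RPKM in control cells in the authors' deposited table (log2 fold change -3.02 ± 0.43, adjusted p = 5.21e-10). Rab3il1, an exchange factor gene of Rab GTPases, had 2.03 RPKM in nickel cells and 11.3 RPKM in control cells (authors' deposited table, -2.41 ± 0.26, adjusted p = 1.32e-17). Nxf3, Xlr3c and Dbx2 were 5.04-fold, 6.32-fold and 5.48-fold lower by the authors' deposited table. A value of 0 was given in nickel cells for 6 called genes and in control cells for 14, and these have no fold. Serpina3k and Hp, both liver genes, were among the 6 in the authors' deposited table, at 0.474 and 0.340 RPKM in control cells.

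The same dose on day 4 was read from other libraries, so both days could be compared by a test. On day 4, 1315 genes passed, 6.75% of those tested, with 3.44% higher and 3.32% lower. Of these 492 genes were called on both days, 57.1% of the day 6 calls and 37.4% of the day 4 calls, and 488 of them had the same direction, 253 higher and 235 lower. The day 6 fold change was set against the day 4 one by a two-sided Wald test on the log2 scale, with Benjamini-Hochberg adjustment over 18784 genes. It called 14 genes, or 0.0745%. Of these, 8 had the more positive fold change on day 6 and 6 the more negative one. They include genes such as Khdc3, Epha4, Dusp9, Trh and Fos. Khdc3 was 2.46-fold lower on day 6 in the authors' deposited table, with 20.5 RPKM in nickel cells and 30.2 RPKM in control cells on day 4 (difference of log2 fold changes -0.74 ± 0.18, adjusted p = 0.0369). Epha4, an ephrin receptor gene that overlaps another gene on its strand, had 10.8 RPKM in nickel cells and 22 RPKM in control cells on day 6, and 17.5 and 21 RPKM in nickel and control cells on day 4, in the authors' deposited tables (difference -0.73 ± 0.14, adjusted p = 0.00106). Dusp9, an ERK phosphatase gene, was higher on both days, with a smaller fold change on day 6 in the authors' deposited tables (0.29 ± 0.09 against 0.79 ± 0.06, adjusted p of the difference = 0.00861). Trh, the gene of thyrotropin-releasing hormone, was lower on both days, less so on day 6 (-0.76 ± 0.09 against -1.19 ± 0.06 in the authors' deposited tables, adjusted p of the difference = 0.0306). Fos was opposite: it rose on day 6, while on day 4 it had 1.60 RPKM in nickel cells and 3.43 RPKM in control cells in the authors' deposited table (difference 2.39 ± 0.41, adjusted p = 4e-05).

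**Figure D4:**
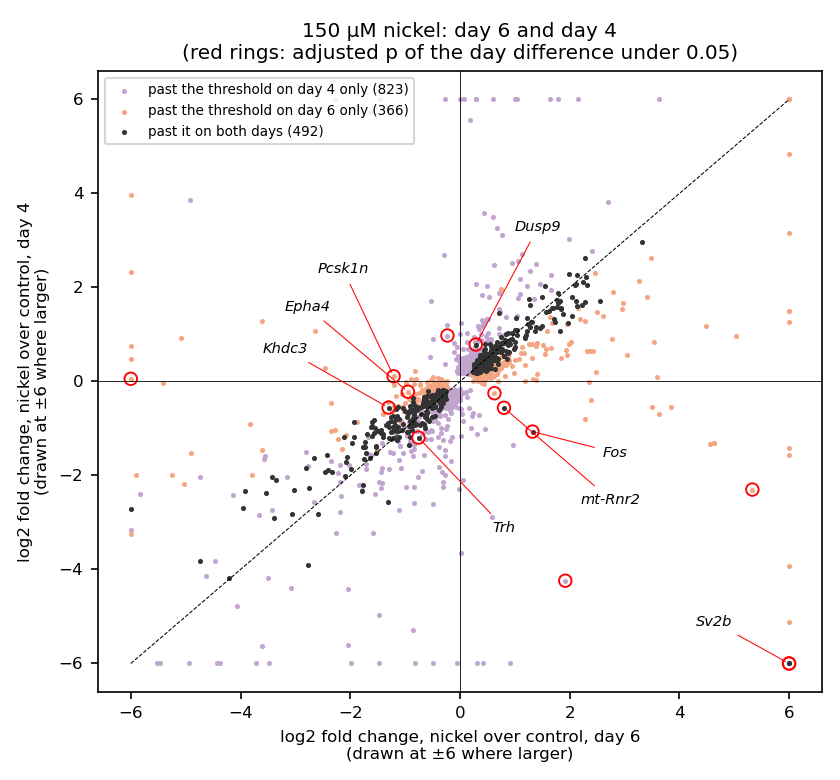
Log2 fold change of nickel over control at 150 µM on day 6 (horizontal axis) and day 4 (vertical axis) for genes past the threshold on either day and tested on both; values beyond 6 are drawn at 6. The 492 genes called on both days lie mostly along the dashed line of equal change, and red rings mark the 14 genes whose fold changes differ between days.

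Gene lists were also counted on day 4. The 2-cell-like list had 21 members higher on day 6 and 21 on day 4, with none lower on either day. Of the ATF4 list 14 fell on day 6 and 21 on day 4. The glycolysis list had 12 higher on day 6 and 15 on day 4, and the laminin list 4 and 12. Day 4 errors were smaller, with a median standard error of 0.14 at 1 RPKM or more, against 0.16 on day 6, and the differences in these counts were not tested.

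The 3 nickel doses of day 6 share the control libraries, so their values stand side by side without a test between them. Levels by dose are given in RPKM, whose scale differed slightly from that of the fold changes at 150 µM. In all, 567 genes passed at 100 µM (2.83% of those tested, 1.62% higher and 1.21% lower), 861 at 150 µM and 1901 at 200 µM (9.47%, 4.99% higher and 4.48% lower). Lefty1 stood at 125 RPKM without nickel and at 90.8, 48.1 and 38.5 RPKM at 100, 150 and 200 µM in the authors' deposited tables. Nanog stood at 195, 263, 272 and 345 RPKM, and Slc2a3 at 317, 399, 469 and 610 RPKM, at 0, 100, 150 and 200 µM in those authors' deposited tables. Both were in rising order, while Dnmt3b was in falling order at 54.3, 38.4, 31.4 and 26.5 RPKM (authors' deposited tables). For other genes 150 µM held the extreme value: Mat2a had 117, 180, 232 and 166 RPKM, and Zscan4d 7.43, 21.4, 24.1 and 18.6 RPKM, in the authors' deposited tables. At 200 µM neither of those genes passed, with adjusted p = 0.548 and 0.278 in the authors' deposited table. Piwil4 stood at 4.48, 2.56, 0.706 and 0.240 RPKM and Khdc3 at 34.1, 29.8, 13.5 and 7.70 RPKM in the authors' deposited tables. Mt1, which did not pass at 150 µM, stood at 153, 163, 152 and 214 RPKM, with adjusted p = 0.000716 at 200 µM in the authors' deposited table. Of the 2-cell-like list 22, 21 and 17 members were higher at 100, 150 and 200 µM, and of the ATF4 list 16, 14 and 14 were lower. Of the HIF target list 2, 6 and 15 were higher.

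**Figure D5:**
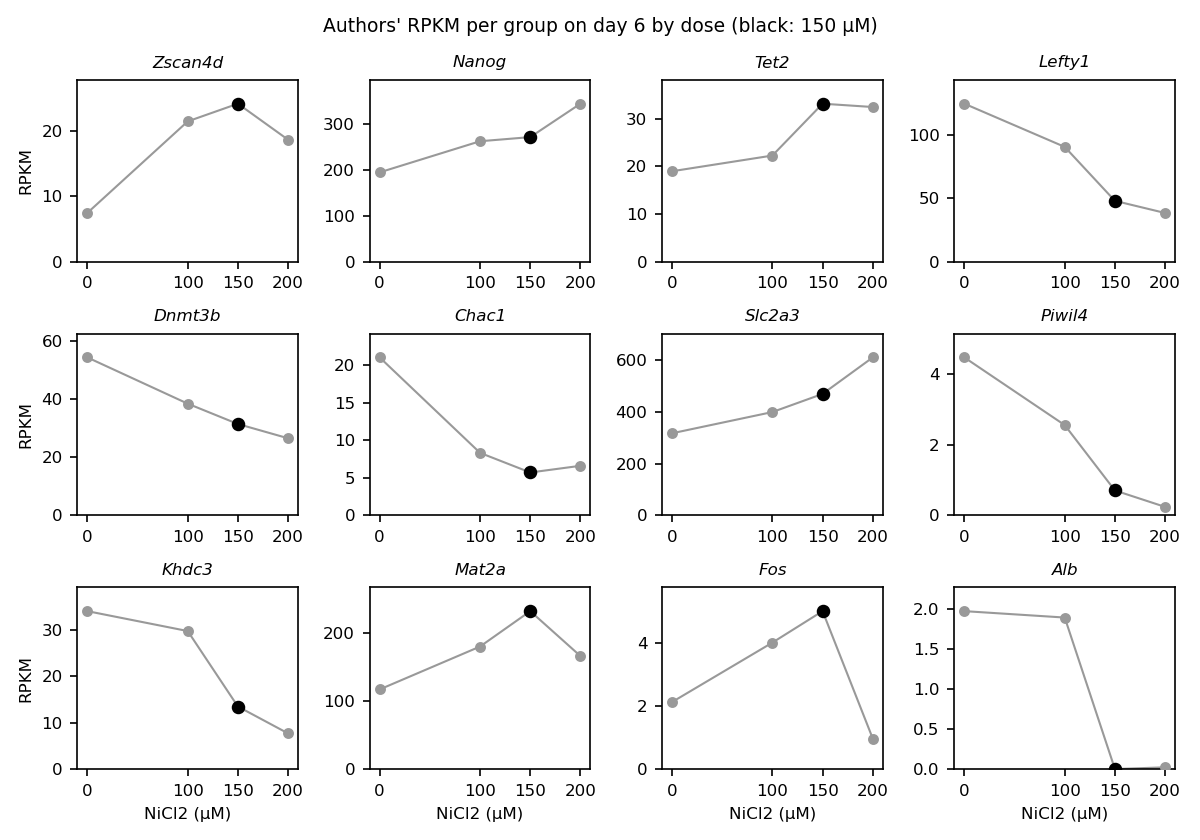
RPKM of 12 genes on day 6 at 0, 100, 150 and 200 µM NiCl2, 1 value per group of 2 libraries, with 150 µM in black. Lefty1, Dnmt3b, Piwil4 and Khdc3 are in falling order with dose, Nanog and Slc2a3 in rising order, and Mat2a, Zscan4d and Fos are highest at 150 µM.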

How the data were processed

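Gene expression was read in 4 libraries, replicates A and B of 150 µM nickel on day 6 and of control on day 6. Libraries were aligned with STAR to GRCm38 and compared with DESeq2, per the submitters' processing notes; the sources used here do not give versions or counting settings. The deposited tables hold 1 RPKM value per group. They also hold the log2 fold change, the p-value and the adjusted p-value as the authors computed them for each comparison. Counts per library were not used here, so no test was run anew: a gene was called at an adjusted p-value under 0.05 in the deposited table, and its standard error was taken as the fold change divided by the normal quantile of the p-value. All value columns used belong to a labelled group. Both days were compared with a Wald test of the difference, adjusted by Benjamini-Hochberg. That test was run on simulated data drawn as independent normal values with the same standard errors. Such a run cannot check those standard errors or whether both days came from the same cultures. The depth of each library was recovered from single-exon genes, whose RPKM are whole multiples of what 1 read is worth in either library, within 0.6%. Depths so estimated lay between 34.0 and 76.7 M reads per library on day 6, and the lowest is uncertain, as given above. Promoter windows and motifs came from RefSeq sequences of GRCm38.p6. Python 3.11.15, numpy 2.4.6, pandas 2.3.3, scipy 1.17.1 and matplotlib 3.10.9 were used.

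The members and gene lists were chosen with earlier results of these data known. Genes were named by this rule: the 15 largest rises and 15 largest falls among called genes with at least 1 RPKM in either group, without predicted genes; in each list up to 8 called members per direction by p-value and up to 3 abundant members not called; up to 8 genes per direction for the difference between days; and a fixed set read at every dose and day. Genes named beyond the rule were chosen after their values were seen. Some genes that the rule names are not reported here. Alternatives were other thresholds, adjustment over all genes tested, a filter on low RPKM, leaving out overlapping genes, centring, and pseudocounts on the RPKM ratio.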

Additional observations from a re-analysis of the deposited data

Results flagged for a closer look

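At 150 µM the log2 fold change of nickel over control differed between day 6 and day 4 for 14 of 18784 genes (Wald test of the difference, Benjamini-Hochberg adjusted p under 0.05), beside 591 genes at an unadjusted p-value under 0.05. Each value below is in RPKM from the authors' deposited tables, and the part of library depth and of overlapping genes in these differences was not tested.

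Among expressed genes, Fos had 5.02 RPKM in nickel cells and 2.13 RPKM in control cells on day 6, and 1.60 and 3.43 RPKM in nickel and control cells on day 4 (difference 2.39 ± 0.41, adjusted p = 4.00e-05). The mitochondrial ribosomal RNA gene mt-Rnr2 had 342 RPKM in nickel cells and 210 RPKM in control cells on day 6, and 202 and 306 RPKM on day 4 (difference 1.36 ± 0.27, adjusted p = 0.0012). Pcsk1n, a proprotein convertase inhibitor gene, had 2.99 RPKM in nickel cells and 7.35 RPKM in control cells on day 6, and 7.08 and 6.74 RPKM on day 4 (difference -1.32 ± 0.30, adjusted p = 0.0154). Khdc3 differed by -0.74 ± 0.18 (adjusted p = 0.0369) and Epha4 by -0.73 ± 0.14 (adjusted p = 0.00106), both lower on day 6. Dusp9 differed by -0.50 ± 0.11 (adjusted p = 0.00861) and Trh by 0.44 ± 0.10 (adjusted p = 0.0306), with the same direction on both days.

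The other 7 were predicted, overlapping or near-silent genes. D7Ertd143e had the more positive fold change on day 6 (difference 0.88 ± 0.15, adjusted p = 6.6e-05). 6430706D22Rik was listed at 6.33 RPKM in nickel cells and 0 in control cells on day 6, and at 0 in nickel cells and 2.82 RPKM in control cells on day 4 (adjusted p = 1.67e-09). Sv2b was listed at 0.126 RPKM in nickel cells and 0 in control cells on day 6, and at 0 in nickel cells and 0.0794 RPKM in control cells on day 4 (adjusted p = 0.00106). Gm38667 had 0.0582 RPKM in nickel cells and 4.18 RPKM in control cells on day 6 (adjusted p = 0.00134). B130006D01Rik, Gm20604 and Pcdhga5 differed with adjusted p = 0.0045, 0.0045 and 0.00489.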

How the results depend on the processing

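No paired analysis was possible because the tables give 1 value per group, so letters A and B could not be used. For the same reason, leaving out a replicate, another size factor and another count model could not give a value. Against 467 genes higher and 394 lower in nickel cells, an adjusted p-value under 0.01 gave 260 higher and 209 lower, one under 0.10 gave 672 higher and 618 lower, and a further limit of 2-fold gave 128 higher and 126 lower. Over all lists together 82 members were lower, and 51 at an adjusted p-value under 0.01. Counts of single lists moved by over 1.5 times in 33 cases at an adjusted p-value under 0.01 (79 did not), 30 at 0.10, 6 under adjustment over all tested genes and 8 with a floor of 1 RPKM. At 0.01 the 2-cell-like list had 20 higher, the ATF4 list 11 lower and the glycolysis list 8 higher, while HIF targets had 2 higher against 6 and naive and core factors 1 lower against 5. Adjustment over all tested genes gave 432 higher and 362 lower, a floor of 1 RPKM in either group 468 and 412, leaving out overlapping genes 410 and 375, and centring 467 and 394. With settings chosen after seeing the data, leaving out transcripts over 8000 bases gave 386 and 369, and a floor of 1 RPKM in both groups 413 and 338. The difference between days gave 8 and 6 genes, and 6 and 6 with a floor of 1 RPKM. The sign of the log2 RPKM ratio was the same for all called genes with pseudocounts of 0.1 and 1, which left 163 and 102 of 216 named genes within their standard error. Genes under 1 RPKM had a median standard error of 1.97, against 0.16 above it, and the part of library depth in this was not tested.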
